A study of Mus musculus with 21 samples.

Results

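The genes described here are 9 transcription factors that direct growth and identity of heart muscle: Gata4, Gata6, Hand2, Tbx5, Tbx20, Nkx2-5, Mef2a, Mef2c and Meis1. They were taken by symbol from a table of 18762 mouse genes, in which each has 1 row, under the gene identifiers 14463 (Gata4), 14465 (Gata6), 15111 (Hand2), 21388 (Tbx5), 57246 (Tbx20), 18091 (Nkx2-5), 17258 (Mef2a), 17260 (Mef2c) and 17268 (Meis1). The values are FPKM, fragments per length of transcript and per total of mapped fragments. This does not by itself put all libraries on a common scale, and differences between libraries moved with rescaling and with transcript length, as given below. All 9 were among the 12433 genes that reached at least 1 FPKM in at least 3 libraries and were tested.

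RNA came from the heart apex of ICR mice at postnatal day 7, after the apex had been resected at 1 day of age. The 21 libraries form 7 groups of 3, and every group was resected, the control included. The control had apical resection and no drug named in its labels, and the other groups were given isoproterenol, amiodarone, metoprolol, propranolol, lidocaine or ivabradine under the skin on 7 consecutive days. Doses, sex, any injection of the control and the number of animals behind each library are not in the labels, so p-values measure the spread between these libraries, which may be technical. Isoproterenol stimulates β-adrenergic receptors, metoprolol and propranolol block them, amiodarone blocks several cardiac ion channels, lidocaine blocks sodium channels and ivabradine blocks the pacemaker current. No unresected heart entered the comparisons.

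FPKM values summed to 496304 to 552905 in each library, with 16348 to 16746 genes above 0. Absolute depth is unknown from FPKM. The steps between low values of 67 genes gave relative depths of 0.967 to 1.01, and libraries of 1 group correlated at r = 0.988 to 0.996 across genes. The 10 cardiomyocyte markers, Myh6, Tnnt2 and Actn2 among them, summed to 45210 to 52500 FPKM in the 21 libraries and overlapped between all groups. The highest levels of genes of other tissues were each in 1 library: control 3 had 62.7 FPKM of the skeletal muscle gene Mylpf, isoproterenol 3 had 176 FPKM of the atrial gene Myl7, amiodarone 2 had 222 FPKM of the lung gene Sftpc, and propranolol 1 had 10.8 FPKM of the liver gene Alb. Sftpc was at 0 in every control, isoproterenol and metoprolol library. Lower levels stood in lidocaine 1 (9.1 FPKM of Sftpc) and amiodarone 3 (30.4 FPKM of Mylpf), which were kept when those 4 were left out. The mean of Mylpf was 28.7 FPKM in control, 14.6 with amiodarone and 1.80 to 5.72 with the other drugs. Control 3 alone does not account for the control mean, so some Mylpf RNA stayed in the controls that were kept. Leaving out lidocaine 1 alone ended no member's call of lidocaine against control. Results are given with and without the 4 libraries where that changes them. The 6 drug comparisons share the 3 control libraries.

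GATA, HAND, T-box, NKX and MEF2 proteins bind DNA at the enhancers of heart muscle genes and act together, often as physical partners, to switch on contractile, conduction and ion-handling genes. The same factors are used in the embryo to make the heart and after birth to keep muscle identity and to drive growth in cell size. Meis1 is known for a contrary role in the newborn heart, where it favours withdrawal of heart muscle cells from the cell cycle through cell cycle inhibitor genes.

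Promoter sequences are shown for 4 members that cover the range of behaviour below: Hand2 and Tbx20, which both rose with amiodarone, metoprolol, lidocaine and ivabradine, Meis1, which fell, and Nkx2-5, which passed the test in no drug comparison. Promoter windows were taken for 6 of the 9 members from the RefSeq table used here (build GRCm38.p6). That count does not show that the table lacks promoters of the other members. Each line gives the 250 bases before the annotated transcription start, 5′ to 3′ on the gene's own strand. The windows are chr8:57320733-57320982 on the plus strand for Hand2, and on the minus strand chr9:24774304-24774553 for Tbx20, chr11:19018970-19019219 for Meis1 and chr17:26841566-26841815 for Nkx2-5. Capitals mark matches on either strand to the cAMP-response core TGACG, the GATA forms TGATAA and AGATAA, the MEIS form TGACAG, the T-box core GGTGTG and the HAND E-box CATCTG.
Hand2: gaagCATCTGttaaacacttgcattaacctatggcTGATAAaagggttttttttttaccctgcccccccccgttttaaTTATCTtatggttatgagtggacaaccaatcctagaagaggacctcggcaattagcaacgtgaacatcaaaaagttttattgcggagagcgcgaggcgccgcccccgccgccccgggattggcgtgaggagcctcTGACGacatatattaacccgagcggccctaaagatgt
Tbx20: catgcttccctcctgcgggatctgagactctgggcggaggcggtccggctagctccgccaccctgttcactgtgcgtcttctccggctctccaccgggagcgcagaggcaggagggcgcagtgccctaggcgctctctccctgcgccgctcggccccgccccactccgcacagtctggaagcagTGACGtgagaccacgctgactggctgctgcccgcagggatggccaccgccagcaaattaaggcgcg
Meis1: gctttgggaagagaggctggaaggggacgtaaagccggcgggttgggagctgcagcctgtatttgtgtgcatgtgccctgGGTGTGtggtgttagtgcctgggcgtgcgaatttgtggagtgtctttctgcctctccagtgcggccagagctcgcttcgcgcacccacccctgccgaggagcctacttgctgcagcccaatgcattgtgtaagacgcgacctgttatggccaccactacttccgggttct
Nkx2-5: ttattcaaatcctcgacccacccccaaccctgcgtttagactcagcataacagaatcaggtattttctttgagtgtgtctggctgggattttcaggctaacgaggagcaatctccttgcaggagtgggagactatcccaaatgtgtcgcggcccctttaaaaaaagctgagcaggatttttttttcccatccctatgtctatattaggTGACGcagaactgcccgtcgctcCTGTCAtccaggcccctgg

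The TGACG core was found in the Hand2, Tbx20 and Nkx2-5 windows, where it began 37, 66 and 42 bases before the start, and 17.9% of all 32536 distinct promoter windows of this length hold it. Hand2 also held TGATAA (7.79% of windows), AGATAA on the opposite strand (9.97%) and CATCTG (14.4%). Meis1 held GGTGTG (16.3% of windows), and Nkx2-5 held TGACAG on the opposite strand (15.8%), 19 bases before its start. The MEF2 motif, searched by its consensus, was in 2.89% of all windows and in none of the windows taken for the 6 members. The CCAAT box (CCAAT, 33.8% of windows, not in capitals) was in the Hand2 and Meis1 windows and in 2 of the 3 Mef2c windows. TGATAA and AGATAA can overlap, and a match describes the letters only.

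Of the 9 factors, Nkx2-5 had the highest level, with a mean over the 21 libraries of 96.7 FPKM, and Gata4 followed at 72.6 FPKM. Gata6 (45.9 FPKM), Mef2a (42.5 FPKM) and Hand2 (42.0 FPKM) stood close together. Tbx20 (27.3 FPKM), Meis1 (14.8 FPKM), Mef2c (11.8 FPKM) and Tbx5 (9.29 FPKM) were lower, and Tbx5 lay at the 48.9th percentile of the tested genes against the 93.9th for Nkx2-5. Across all libraries Hand2 varied most, with a coefficient of variation of 21.8%, and Nkx2-5 least, with 6.60%.

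Gata6 rose with all 6 drugs against the control, Hand2 and Mef2a with 5, and Gata4 and Tbx20 with 4. Meis1 fell with 5. Tbx5, Nkx2-5 and Mef2c passed the test with none of the 6 drugs in limma's moderated test with Benjamini-Hochberg adjustment over all 12433 genes. At an unadjusted p under 0.05, Tbx5 and Nkx2-5 were each higher with 1 drug, isoproterenol, and Mef2c with 0. Of the 18 drug libraries, 17 lay above every control library for Gata4, 16 for Gata6, 16 for Hand2, 15 for Tbx20 and 14 for Mef2a, while 17 lay below every control library for Meis1. The count above was 7 for Nkx2-5, 7 for Mef2c and 3 for Tbx5. Over all tested genes, the 3 libraries of a drug lay wholly above the controls for 12.0% of genes with isoproterenol, 13.0% with amiodarone, 14.7% with metoprolol, 11.4% with propranolol, 15.2% with lidocaine and 10.1% with ivabradine. They lay wholly below for 32.8, 30.6, 31.8, 31.2, 33.3 and 25.8% of genes in the same order. These shares are for 1 drug at a time. How many tested genes have as many of the 18 drug libraries beyond the controls was not counted.

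**Figure D1:**
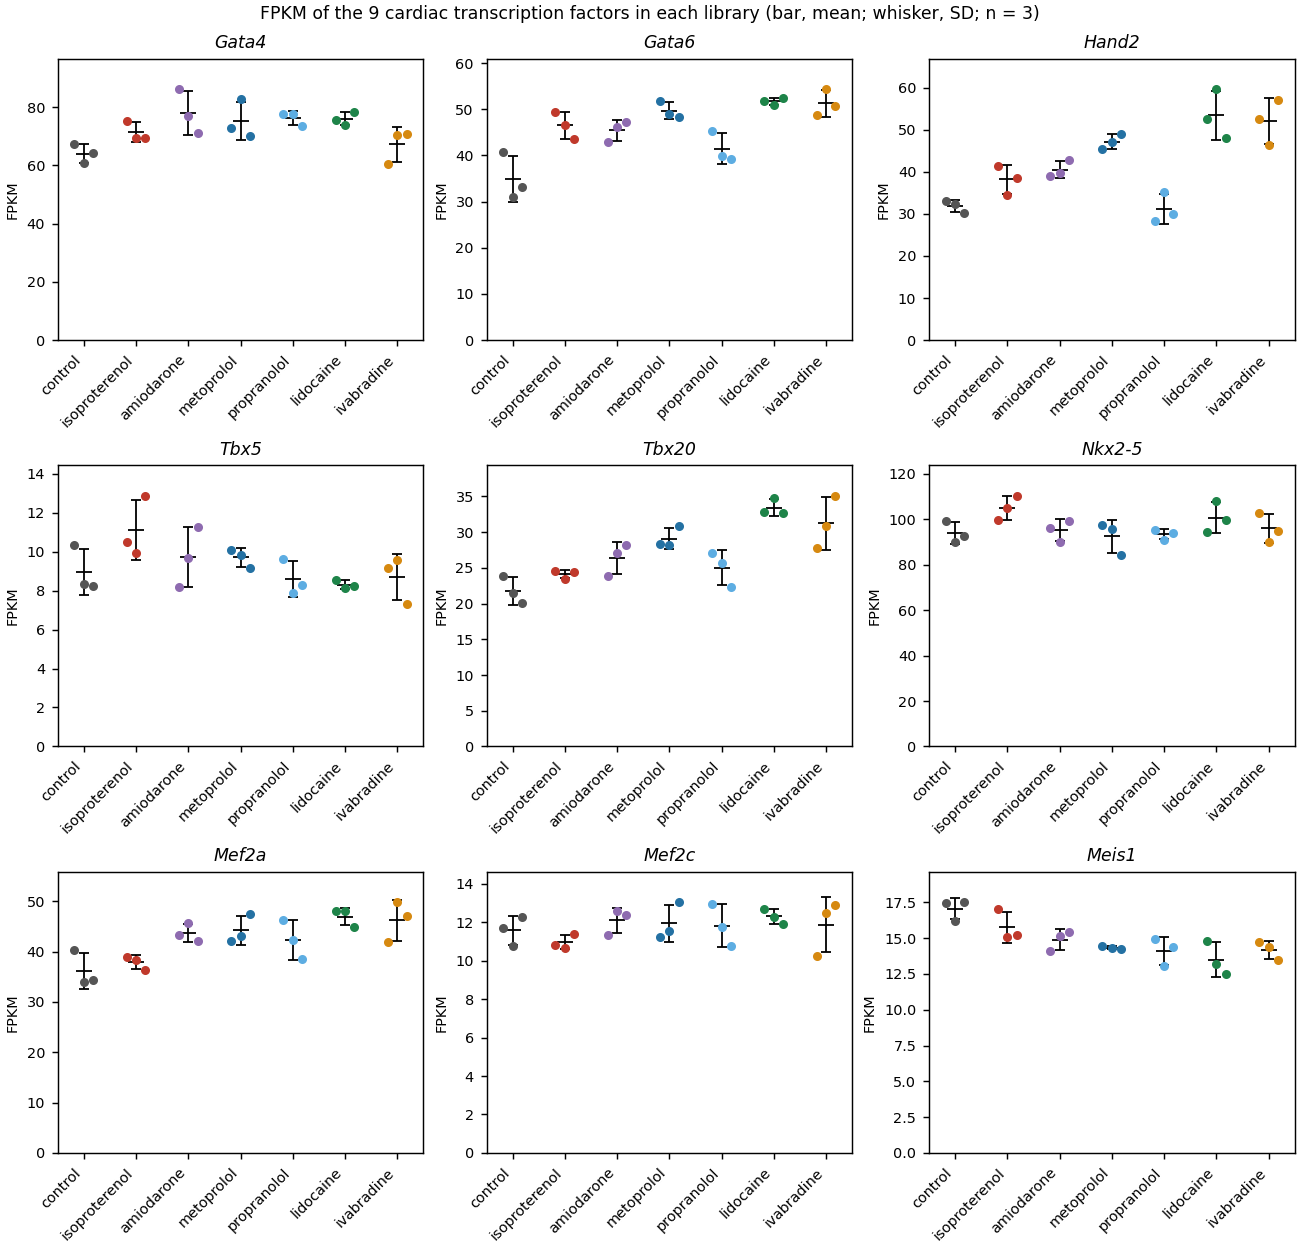
FPKM of each of the 9 factors (vertical axes, from 0) in each of the 21 libraries, by group; points are libraries, the bar is the mean of 3 and the whisker the SD. Hand2 stands between 45.3 and 59.6 FPKM with metoprolol, lidocaine and ivabradine and between 28.4 and 35.3 FPKM in control and propranolol libraries, while Nkx2-5 lies between 84.2 and 110 FPKM and Mef2c between 10.3 and 13.1 FPKM in all groups.

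Counted by drug, 2 of the 9 members rose with isoproterenol, where 8.38% of all tested genes rose and 25.8% fell; no member fell, at an unadjusted p under 0.05 either. With amiodarone 5 rose and 1 fell (8.47% and 20.6% of all genes), and with metoprolol 5 rose and 1 fell (9.48% and 22.0%). With propranolol 3 rose and 1 fell (6.98% and 19.8%), with lidocaine 5 rose and 1 fell (10.6% and 26.6%), and with ivabradine 4 rose and 1 fell (7.91% and 19.1%). In all, 34.2% of genes were called with isoproterenol, 29.0% with amiodarone, 31.4% with metoprolol, 26.8% with propranolol, 37.1% with lidocaine and 27.0% with ivabradine. In each drug comparison the calls over all genes ran mostly downwards, and those among the members mostly upwards.

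The median difference of the members was 0.15 with isoproterenol, 0.26 with amiodarone, 0.23 with metoprolol, 0.03 with propranolol, 0.24 with lidocaine and 0.07 with ivabradine, on the log2(FPKM + 1) scale. The median over all tested genes lay between -0.10 and -0.08 in the same comparisons. After rescaling the libraries by the median of gene ratios, the median over all genes lay between -0.01 and 0.00, and the share of calls that were higher moved from 24.5 to 30.2% up to 56 to 61.4%. Members called under that rescaling were 6 higher with isoproterenol, 5 with amiodarone, 5 with metoprolol, 4 with propranolol, 5 with lidocaine and 4 with ivabradine, and 1 lower, Meis1 with lidocaine. Of all genes, 16.3, 14.3, 15.4, 13.4, 18 and 14% were called higher in the same order, and 9.02 to 13.9% lower. Without the 4 libraries that carried RNA of other tissues, 1 member was called higher with isoproterenol, 1 with amiodarone, 4 with metoprolol, 0 with propranolol, 4 with lidocaine and 4 with ivabradine, and Meis1 was called lower with propranolol and lidocaine. Calls over all genes fell as well: 544, 377, 885, 344, 1060 and 677 genes were then higher in the same order, where all libraries gave 1042, 1053, 1179, 868, 1312 and 984.

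**Figure D2:**
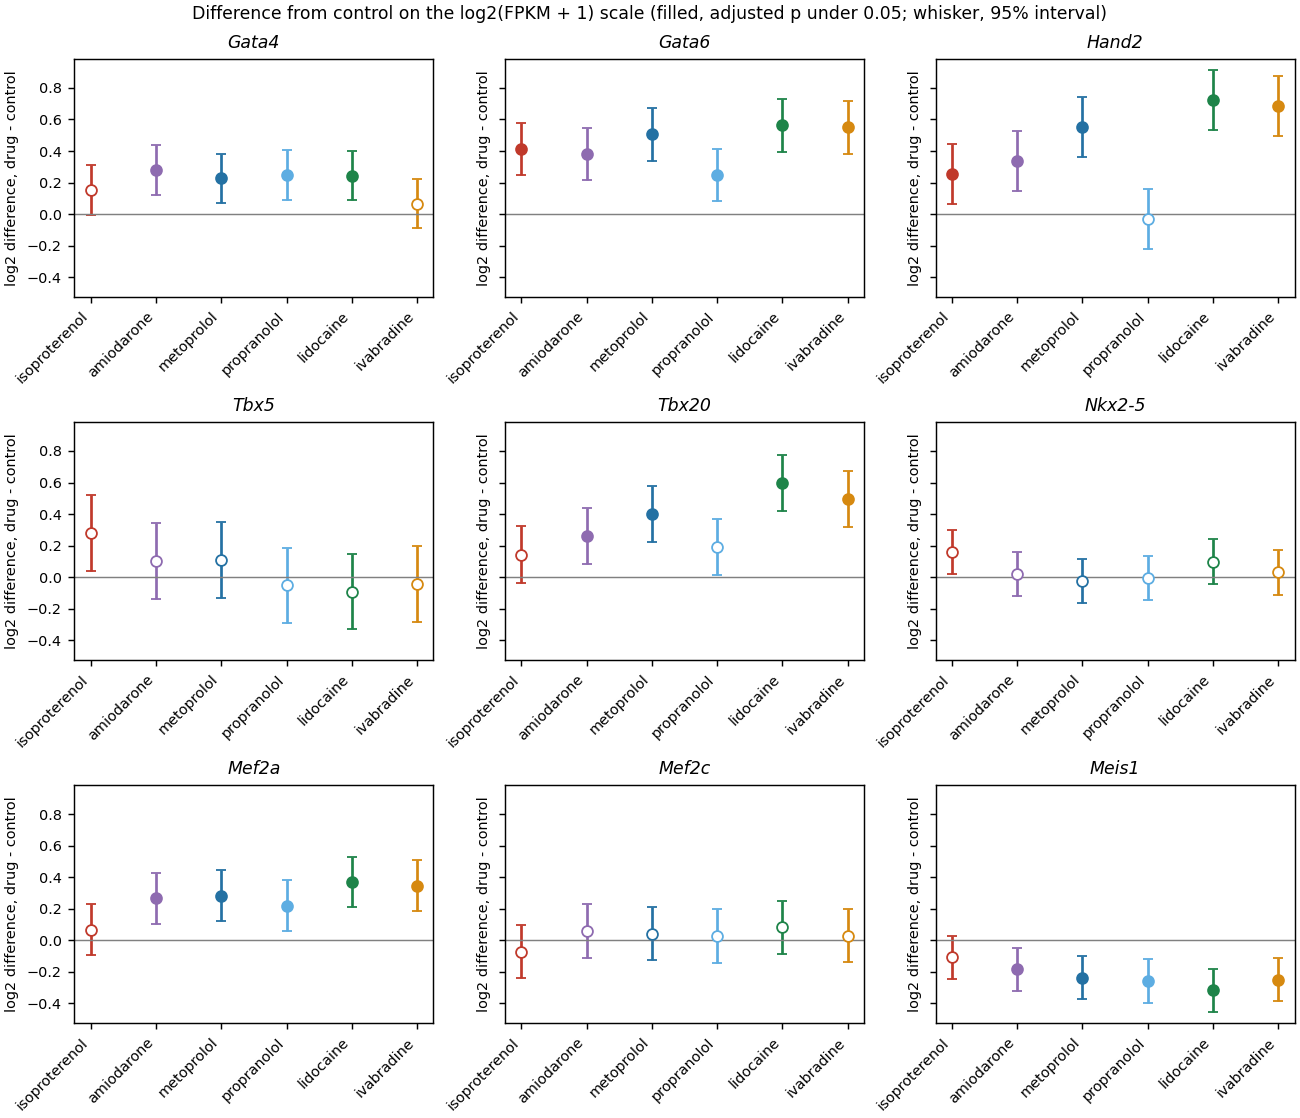
Difference of each drug group from control on the log2(FPKM + 1) scale (vertical axes), with the 95% interval of the limma fit as whiskers; filled points passed an adjusted p of 0.05. Gata6 is filled with all 6 drugs, Hand2 reaches 0.72 with lidocaine and lies at -0.03 with propranolol, and the 5 filled Meis1 points lie between -0.32 and -0.18.

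Gata4, a zinc finger factor that activates contractile and natriuretic peptide genes and mediates hypertrophic growth, stood at 67.3, 60.8 and 64.2 FPKM in the controls. It stood at 86.2, 76.9 and 71.2 FPKM with amiodarone, 72.9, 82.8 and 70.1 with metoprolol, 77.7, 77.6 and 73.6 with propranolol, and 75.7, 74.0 and 78.4 with lidocaine. In each of these 4 groups all 3 libraries lay above all 3 controls. With isoproterenol (75.4, 69.4 and 69.5 FPKM) they did too, and with ivabradine (60.4, 70.5 and 71.0 FPKM) the groups overlapped.

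Gata4 rose by a log2 difference of 0.28 ± 0.07 (SE) with amiodarone (adjusted p = 0.0117, limma), 0.23 with metoprolol (adjusted p = 0.0292), 0.25 with propranolol (adjusted p = 0.0214) and 0.24 with lidocaine (adjusted p = 0.0168). The folds were 1.17 to 1.21. The differences with isoproterenol, 0.15 (adjusted p = 0.118), and ivabradine, 0.07 (adjusted p = 0.533), did not pass, although that with isoproterenol was called after rescaling by gene ratios (0.26, adjusted p = 0.0123). None of the 4 calls held without control 2, which left 0.24 with amiodarone, 0.19 with metoprolol, 0.21 with propranolol and 0.21 with lidocaine. None held without the 4 libraries with RNA of other tissues (0.23 to 0.29). Calls were also lost without control 3 (metoprolol 0.23, propranolol 0.25), without amiodarone 1 (0.21), without metoprolol 1 (0.25) or 2 (0.16), without propranolol 1 (0.24) or 2 (0.24), and without lidocaine 3 (0.22), and for metoprolol also with the compared groups alone (adjusted p = 0.0507) or the Y-linked covariate (0.20).

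Gata6, the partner of Gata4 in the heart, with overlapping targets, showed the broadest rise. The controls had 40.6, 31.0 and 33.1 FPKM, control 1 standing above the other two. Lidocaine libraries had 51.8, 51.0 and 52.5 FPKM, ivabradine 48.8, 54.4 and 50.7, and metoprolol 51.8, 49.1 and 48.3. Isoproterenol libraries had 49.4, 46.6 and 43.6 FPKM, amiodarone 43.0, 46.2 and 47.2, and propranolol 45.3, 39.8 and 39.2. Every drug library except propranolol 2 and propranolol 3 lay above the highest control.

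The log2 difference of Gata6 from control was 0.56 ± 0.08 (SE) with lidocaine (adjusted p = 7.01e-05), 0.55 with ivabradine (adjusted p = 0.00016) and 0.51 with metoprolol (adjusted p = 0.000366). It was 0.41 with isoproterenol (adjusted p = 0.000915), 0.38 with amiodarone (adjusted p = 0.00278) and 0.25 with propranolol (adjusted p = 0.0289), all in limma. Group means were 34.9 ± 5.07 FPKM (SD, n = 3) in control and 51.7 ± 0.755 FPKM with lidocaine, the spread of the controls being the widest. Except with propranolol, the call held in all 18 alternatives run for it. The propranolol difference was no longer called without control 2 (0.17), control 3 (0.21) or propranolol 1 (0.18), without the 4 libraries (0.15), when the compared groups alone were fitted (adjusted p = 0.113), or on a scale set by 10 cardiomyocyte markers (0.09). An antisense RNA gene, Gata6os, overlaps Gata6, and the strand of counting is not stated, so reads of both cannot be told apart.

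The balance between the GATA factors was read as a ratio within each library, which needs no scaling between libraries but does not remove effects of transcript length. How often other pairs of genes give ratios without overlap was not counted. The ratio of Gata4 to Gata6 FPKM was 1.66, 1.96 and 1.94 in the controls, 1.46, 1.45 and 1.49 with lidocaine, 1.24, 1.30 and 1.40 with ivabradine, and 1.52, 1.49 and 1.59 with isoproterenol. In these 3 drug groups the ratio did not overlap the controls (two-sided exact permutation p = 0.10 each, the smallest that 3 against 3 libraries allow). With propranolol, at 1.71, 1.95 and 1.88, every library lay within the control range. Amiodarone (2.01, 1.66 and 1.51) and metoprolol (1.41, 1.69 and 1.45) overlapped the controls.

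Hand2, a basic helix-loop-helix factor of ventricle formation, had the largest difference of the 9 with metoprolol, lidocaine and ivabradine, while Gata6 exceeded it with isoproterenol and amiodarone, and with propranolol it lay near the control. The controls had 33.0, 32.3 and 30.3 FPKM. Lidocaine libraries had 52.7, 59.6 and 48.0 FPKM, ivabradine 52.5, 46.3 and 57.2, and metoprolol 45.3, 47.1 and 49.0. Amiodarone libraries had 38.9, 39.8 and 42.9 FPKM, isoproterenol 41.4, 34.6 and 38.6, and propranolol 28.4, 35.3 and 30.0. Ordered by mean, each group overlapped the next in its libraries, except that metoprolol lay wholly above amiodarone and isoproterenol wholly above control. Propranolol was spread around the control, and propranolol 2 exceeded isoproterenol 2.

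Hand2 was higher than control by 0.72 ± 0.09 (SE) with lidocaine (adjusted p = 2.6e-05), 0.69 with ivabradine (adjusted p = 7.86e-05), 0.55 with metoprolol (adjusted p = 0.000494), 0.34 with amiodarone (adjusted p = 0.0114) and 0.25 with isoproterenol (adjusted p = 0.0384). With propranolol the difference was -0.03, with a 95% interval from -0.22 to 0.16 (adjusted p = 0.803). The group means were 31.8 ± 1.39 FPKM (SD, n = 3) in control, 53.4 ± 5.84 FPKM with lidocaine, 52.0 ± 5.47 FPKM with ivabradine, 47.2 ± 1.85 FPKM with metoprolol and 31.2 ± 3.60 FPKM with propranolol. The lidocaine, ivabradine and metoprolol calls held in all 18 alternatives. The amiodarone call was lost without the 4 libraries (0.32, adjusted p = 0.0914) and on the cardiomyocyte scale (0.19). The isoproterenol call was lost without control 2 (0.26), control 3 (0.22), isoproterenol 1 (0.19) or isoproterenol 3 (0.24), with the title number as a block (adjusted p = 0.0527), without a filter on low genes (adjusted p = 0.0592), without the 4 libraries (0.21) and on the cardiomyocyte scale (0.09).

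Hand2 also differed in comparisons without the control group. Among the 5 anti-arrhythmic drugs, 132 of 12433 genes (1.06%) differed in limma's F test, and Hand2 was the 1 member among them (adjusted p = 0.0014), which became adjusted p = 0.0544 without the 4 libraries. Between the beta-blockers, metoprolol exceeded propranolol by 0.59 ± 0.09 (SE) for Hand2 (adjusted p = 0.0319), with no overlap of libraries, in a comparison in which 6 genes (0.0483%) were called, 0.0241% in each direction. That call was lost when metoprolol 1 (0.61), metoprolol 2 (0.59), metoprolol 3 (0.56), propranolol 1 (0.52) or propranolol 3 (0.56) was left out, and when no filter was used, when only these groups were fitted and without the 4 libraries, with adjusted p between 0.0725 and 0.176 over these 8 settings, while the size of the difference stayed between 0.52 and 0.61.

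Metoprolol also stood above propranolol in all 3 libraries for Gata6, by 0.26 (adjusted p = 0.277), and for Tbx20, by 0.21 (adjusted p = 0.421), without passing the test. Over all tested genes, 10.5% lay wholly above and 7.90% wholly below in this comparison. The 95% intervals of these differences were 0.09 to 0.43 for Gata6 and 0.03 to 0.39 for Tbx20. For the other 6 members the difference between the beta-blockers lay between -0.02 and 0.16. Both compounds are aryloxypropanolamines, propranolol without receptor subtype selectivity and metoprolol selective for the cardiac subtype; without doses in the labels the comparison is of the groups as treated.

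Tbx20, a T-box factor needed for adult heart muscle function, followed the order of Hand2 at the top. It had 23.9, 21.4 and 20.1 FPKM in the controls, 32.8, 34.8 and 32.7 with lidocaine, 27.7, 30.9 and 35.1 with ivabradine, and 28.3, 28.2 and 30.8 with metoprolol. All 9 of these drug libraries lay above the controls. Amiodarone (23.8, 27.0 and 28.2 FPKM), propranolol (27.1, 25.7 and 22.3 FPKM) and isoproterenol (24.6, 23.4 and 24.4 FPKM) each overlapped the controls by 1 library.

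The log2 difference of Tbx20 was 0.60 ± 0.09 (SE) with lidocaine (adjusted p = 7.7e-05), 0.50 with ivabradine (adjusted p = 0.000551), 0.40 with metoprolol (adjusted p = 0.00266) and 0.26 with amiodarone (adjusted p = 0.0287). Group means were 21.8 ± 1.96 FPKM (SD, n = 3) in control and 33.4 ± 1.19 FPKM with lidocaine. The lidocaine, ivabradine and metoprolol calls held in all 18 alternatives. The amiodarone call was lost in 8, among them without control 2 (0.25), control 3 (0.21), amiodarone 2 (0.24) or amiodarone 3 (0.21), on the cardiomyocyte scale (0.11), and after correction for transcript length and GC content (0.14). With propranolol the difference was 0.19 (adjusted p = 0.101), called without control 1 (0.26) or propranolol 3 (0.27) and after rescaling by gene ratios (0.28, adjusted p = 0.0209). With isoproterenol it was 0.14 (adjusted p = 0.201), called after that rescaling (0.25, adjusted p = 0.0338).

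Tbx5, the T-box factor of atrial and ventricular conduction and of sarcoplasmic calcium genes, had 10.3, 8.35 and 8.21 FPKM in the controls and 7.33 to 12.9 FPKM in the drug libraries. The highest library was isoproterenol 3, at 12.9 FPKM, the library that also carried the atrial gene Myl7, whose part in the value was not tested. Against control its differences lay between -0.09 (lidocaine) and 0.28 (isoproterenol, adjusted p = 0.0642, called without control 1 at 0.38, without isoproterenol 2 at 0.35 or after rescaling by gene ratios at 0.38). Without isoproterenol 3 the isoproterenol difference was 0.18 (adjusted p = 0.295), and without the 4 libraries 0.13. Isoproterenol exceeded the mean of the 5 anti-arrhythmic groups by 0.28 for Tbx5 (adjusted p = 0.0308), which was 0.17 (adjusted p = 0.265) without isoproterenol 3 and was also not called without isoproterenol 1 (0.31).

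Within the T-box pair the ratio of Tbx20 to Tbx5 FPKM was 2.32, 2.57 and 2.44 in the controls. It was 3.84, 4.28 and 3.97 with lidocaine, 3.03, 3.23 and 4.79 with ivabradine, 2.80, 2.86 and 3.36 with metoprolol, and 2.81, 3.28 and 2.69 with propranolol. These 4 groups lay wholly above the controls (exact permutation p = 0.10 each, two-sided). With amiodarone (2.91, 2.80 and 2.50) and isoproterenol (2.34, 2.36 and 1.89) the ratio overlapped the controls. Tbx20 belongs to the longest class of transcript length and Tbx5 to the middle class. Differences from control moved with length over all genes, as given below, and the ratio was not corrected for this.

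**Figure D3:**
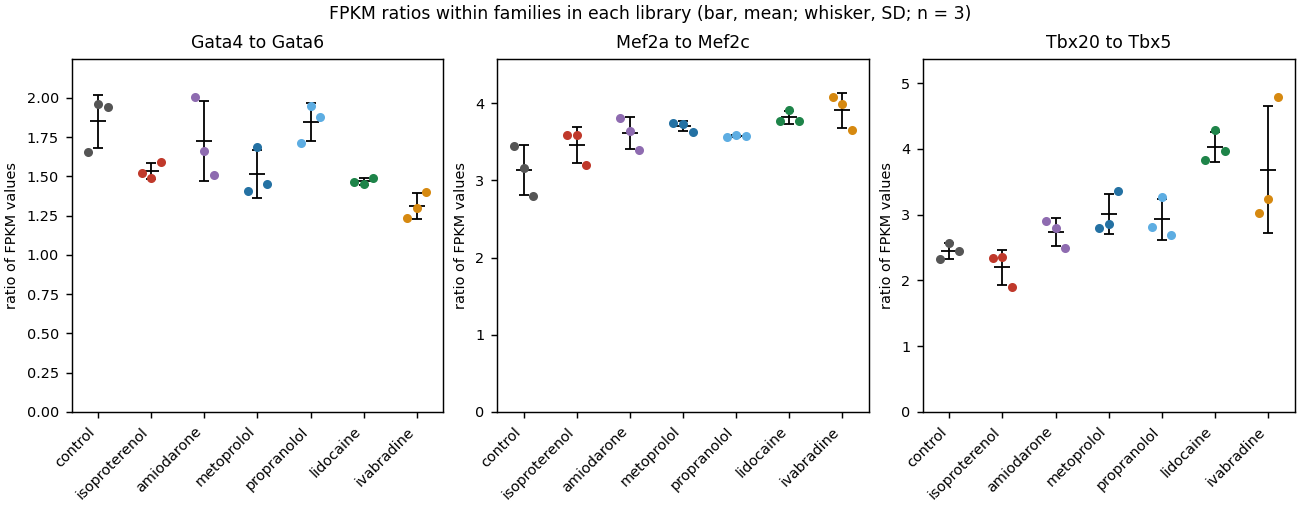
Ratio of FPKM values within 3 pairs of related factors (vertical axes, from 0) in each library, by group; points are libraries, the bar is the mean of 3 and the whisker the SD. The Gata4 to Gata6 ratio is lowest with ivabradine (1.24 to 1.40), and the Tbx20 to Tbx5 ratio is highest with lidocaine and ivabradine (3.03 to 4.79).

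Nkx2-5, the homeobox factor that marks heart muscle lineage from the earliest heart field onward, was the most even member. It had 99.3, 89.8 and 92.6 FPKM in the controls and 84.2 to 110 FPKM in the drug libraries. With isoproterenol all 3 libraries (99.8, 105 and 110 FPKM) lay above the controls, by 0.16 with a 95% interval from 0.02 to 0.30 (adjusted p = 0.0719). That difference was called without control 1 (0.20, adjusted p = 0.0457), after rescaling by gene ratios (0.27) and after correction for length and GC content (0.19). With amiodarone, metoprolol, propranolol and ivabradine the differences lay between -0.02 and 0.03, each interval within -0.16 and 0.17, and with lidocaine the difference was 0.10, called once length and GC content were corrected for (0.19, adjusted p = 0.0182).

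Mef2a and Mef2c belong to the MADS-box family that drives contractile and energy genes of muscle. A further member of that family, Mef2d, had higher means than both, at 49.6 FPKM in control and 56.7 to 63.3 FPKM over the drug groups. It was called higher with isoproterenol, amiodarone, metoprolol and lidocaine. Mef2a had 40.3, 34.0 and 34.3 FPKM in the controls, with control 1 high. It had 48.0, 48.0 and 44.9 FPKM with lidocaine, 41.8, 49.9 and 47.1 with ivabradine, 42.1, 43.1 and 47.4 with metoprolol, and 43.2, 45.7 and 42.1 with amiodarone. All 12 of these libraries lay above the controls. Propranolol (46.2, 42.3 and 38.4 FPKM) overlapped them by 1 library, and isoproterenol (38.9, 38.4 and 36.3 FPKM) lay wholly within their range.

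The log2 difference of Mef2a was 0.37 ± 0.08 (SE) with lidocaine (adjusted p = 0.0016), 0.35 with ivabradine (adjusted p = 0.00355), 0.28 with metoprolol (adjusted p = 0.0111), 0.27 with amiodarone (adjusted p = 0.0164) and 0.22 with propranolol (adjusted p = 0.0424). With isoproterenol it was 0.07 (adjusted p = 0.537). The lidocaine call held in all 18 alternatives and the ivabradine call in 17, being lost on the cardiomyocyte scale (0.19). The metoprolol call was lost without control 2 (0.24) or metoprolol 3 (0.23), and the amiodarone call without control 2 (0.22), control 3 (0.23), amiodarone 2 (0.23) or the 4 libraries (0.20), and both were lost on the cardiomyocyte scale (0.15 and 0.12). The propranolol call was lost in 10 of 18, among them without control 2 (0.18), control 3 (0.18), propranolol 1 (0.15) or propranolol 2 (0.22).

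Mef2c had 11.7, 10.8 and 12.3 FPKM in the controls and 10.3 to 13.1 FPKM in the drug libraries, and its differences lay between -0.07 (isoproterenol) and 0.08 (lidocaine). The 95% intervals of the 6 differences all fell within -0.24 and 0.25. The ratio of Mef2a to Mef2c was 3.45, 3.16 and 2.79 in the controls and lay above all of them in every library with metoprolol (3.63 to 3.74), propranolol (3.57 to 3.59), lidocaine (3.77 to 3.91) and ivabradine (3.65 to 4.08), with an exact permutation p of 0.10 in each case. With isoproterenol (3.19 to 3.59) and amiodarone (3.39 to 3.81) it overlapped the controls. Mef2a belongs to the longest class of transcript length and Mef2c to the middle class, and this ratio was not corrected for length either. Long non-coding genes overlap Mef2c (Gm52043, Gm52044), Tbx5 (Gm5563) and Meis1 (Gm16141), with the same limit as for Gata6os.

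Meis1, a TALE homeobox factor, was the member that fell. The controls had 17.5, 16.2 and 17.5 FPKM. Lidocaine libraries had 14.8, 13.2 and 12.5 FPKM, propranolol 15.0, 13.1 and 14.4, ivabradine 14.7, 14.4 and 13.5, metoprolol 14.4, 14.3 and 14.2, and amiodarone 14.1, 15.2 and 15.5. All 15 of these libraries lay below all 3 controls. With isoproterenol 2 libraries (15.1 and 15.2 FPKM) lay below the controls and 1 (17.0 FPKM) within their range.

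Meis1 fell by 0.32 ± 0.07 (SE) on the log2 scale with lidocaine (adjusted p = 0.00143), by 0.26 with propranolol (adjusted p = 0.00851), by 0.25 with ivabradine (adjusted p = 0.00946), by 0.24 with metoprolol (adjusted p = 0.0119) and by 0.18 with amiodarone (adjusted p = 0.0419). With isoproterenol the difference was -0.11 (adjusted p = 0.209). Group means were 17.1 ± 0.734 FPKM (SD, n = 3) in control and 13.5 ± 1.19 FPKM with lidocaine. Only the lidocaine call held in all 18 alternatives. Rescaling by gene ratios left -0.11 with amiodarone, -0.16 with metoprolol, -0.17 with propranolol and -0.17 with ivabradine, none of them called, and -0.23 with lidocaine, called. The amiodarone call was also lost without control 1 (-0.17), control 3 (-0.17), amiodarone 1 (-0.15) or amiodarone 2 (-0.20), without a filter, with the compared groups alone and with the Y-linked covariate (-0.17), and the propranolol call without propranolol 2 (-0.21, adjusted p = 0.0509). Without the 4 libraries, the metoprolol (-0.22, adjusted p = 0.0551), ivabradine (-0.23, adjusted p = 0.0504) and amiodarone (-0.18) calls were lost.

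Of the 3 cell cycle inhibitor genes linked to Meis1, only Cdkn1a reached the level for testing, while Cdkn2a and Cdkn2b stayed under it. Cdkn1a, which encodes the inhibitor p21, had a group mean of 47.5 FPKM in control and 18.3 FPKM with isoproterenol, a difference of -1.34 (adjusted p = 8.69e-07). It fell by 0.28 with amiodarone (adjusted p = 0.0459), by 0.32 with propranolol (adjusted p = 0.0266) and by 0.30 with ivabradine (adjusted p = 0.0347). With lidocaine the Cdkn1a difference was -0.19 (adjusted p = 0.139) and with metoprolol -0.14, neither of them called. Whether Meis1 has a part in the Cdkn1a differences was not tested. Of 15 mitosis genes, 15 fell with isoproterenol, 8 with amiodarone, 4 with metoprolol, 4 with propranolol, 2 with lidocaine and 6 with ivabradine. Over all tested genes, 25.8, 20.6, 22.0, 19.8, 26.6 and 19.1% fell in the same order.

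Between isoproterenol and the anti-arrhythmic drugs as a set, 22.8% of all genes differed (9.51% higher and 13.3% lower with isoproterenol), and 4 of the 9 members were called. Isoproterenol was lower for Tbx20 (-0.25, adjusted p = 0.0116), Mef2a (-0.23, adjusted p = 0.0093) and Hand2 (-0.20, adjusted p = 0.0463), and higher for Tbx5 as given above. Without the 4 libraries none of the 4 was called in limma, with Tbx20 at -0.24, Mef2a at -0.18, Hand2 at -0.22 and Tbx5 at 0.19, and none was called with the summed Y-linked genes as a covariate. Leaving out isoproterenol 2 ended the Tbx20 call (-0.23) and leaving out isoproterenol 3 the Mef2a call (-0.20). The Hand2 call was lost, at differences of -0.21 to -0.13, when isoproterenol 2 or 3, amiodarone 2 or 3, metoprolol 2 or 3, propranolol 2, lidocaine 1 or 2, or ivabradine 1 or 3 was left out. At an unadjusted p under 0.05, 3 members were higher and 3 lower.

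Against single beta-blockers, isoproterenol was lower than metoprolol for Hand2 by 0.30 (adjusted p = 0.0483, 8.07% of all genes called, 2.90% higher and 5.17% lower) and higher than propranolol for Hand2 by 0.29 (adjusted p = 0.0409, 14.6% of all genes called, 6.50% higher and 8.15% lower). Isoproterenol stood between the beta-blockers in Hand2. The first call was lost in 12 alternatives and the second in 9. Left out singly, isoproterenol 2 (-0.23), isoproterenol 3 (-0.31), metoprolol 1 (-0.33), metoprolol 2 (-0.30) or metoprolol 3 (-0.27) ended the first, and isoproterenol 1 (0.23), isoproterenol 3 (0.28), propranolol 1 (0.22) or propranolol 3 (0.26) the second.

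Over the 7 groups together, limma's F test called 6 of the 9 members, where 39.9% of all tested genes were called. The adjusted p was 3.33e-05 for Hand2, 0.00038 for Gata6, 0.000439 for Tbx20, 0.00537 for Mef2a, 0.0106 for Meis1 and 0.0316 for Gata4. It was 0.105 for Tbx5, 0.196 for Nkx2-5 and 0.658 for Mef2c. Gata4 left the called set without control 2 (adjusted p = 0.102) or control 3 (adjusted p = 0.0763), and 4 members stayed called without the 4 libraries, when Gata4 (adjusted p = 0.182) and Meis1 (adjusted p = 0.0756) did not.

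Across the 21 libraries, Gata6, Hand2, Tbx20 and Mef2a varied together, and Gata4 less so with each of them. Pearson's r on the log2(FPKM + 1) scale was 0.87 between Tbx20 and Mef2a, 0.85 between Hand2 and Tbx20, 0.82 between Gata6 and Tbx20, 0.77 between Gata6 and Mef2a and 0.63 between Hand2 and Mef2a. For Gata4 it was 0.47 with Mef2a, 0.39 with Gata6, 0.28 with Tbx20 and 0.11 with Hand2. After each library's group mean was removed, r was 0.69 for Tbx20 with Mef2a, 0.44 for Hand2 with Tbx20, 0.53 for Gata6 with Tbx20 and -0.12 for Hand2 with Gata6, which had 0.75 before. Libraries of 1 group and the shared scale of a library enter all these values, which are descriptions.

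Of all tested genes, those with the pattern nearest to each member over the 21 libraries were, for Gata6, Corin (r = 0.95), the enzyme that activates natriuretic peptides, and Rbm24 (r = 0.94), a muscle splicing factor. Tbx20 was nearest to Klf4 (r = 0.93), a Krüppel-like factor, and to the nuclear receptor Nr4a3 (r = 0.91), whose group means ran from 0.33 FPKM in control to 8.64 FPKM with lidocaine. Hand2 was nearest to Nudt4 (r = 0.91) and again Klf4 (r = 0.89), whose means were 23.0 FPKM in control, 26.8 with propranolol, 40.2 with lidocaine and 39.3 with ivabradine. Mef2a was nearest to the RNA-binding protein gene Qk (r = 0.92) and to Hook1 (r = 0.91), and Gata4 to Mmp15 (r = 0.90) and the potassium channel regulator Abcc8 (r = 0.88). Meis1 was nearest to Ccdc117 (r = 0.89) and Zfp949 (r = 0.89), which were also highest in control. Nkx2-5 was nearest to Dhrs11 (r = 0.89) and the respiratory chain subunit Ndufv1 (r = 0.84), Mef2c to Edem3 (r = 0.83) and Atrn (r = 0.83), and Tbx5 to Yap1 (r = 0.81), the Hippo pathway co-activator, and Mat2b (r = 0.80).

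Among 25 other cardiac transcription factors, 19 reached the level for testing. Of these, 3 rose and 3 fell with isoproterenol, 3 and 5 with amiodarone, 3 and 6 with metoprolol, 2 and 6 with propranolol, 3 and 7 with lidocaine, and 1 and 7 with ivabradine. The share that fell was highest with ivabradine and lidocaine, where 19.1 and 26.6% of all genes fell, and lowest with isoproterenol, where 25.8% did. Of all tested genes, 6.98 to 10.6% rose with a drug. The medians of the 19 factors lay between -0.23 and 0.03. The 6 with the smallest p over the 7 groups were Rarg, Irx3, Tcf21, Tead1, Tbx2 and Prox1.

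Rarg, a retinoic acid receptor, fell with all 6 drugs, from a mean of 18.3 FPKM in control to 9.89 FPKM with lidocaine (-0.83, adjusted p = 1.66e-06). Irx3, a homeobox factor of fast conduction, had 41.7 FPKM in control and 43.8 FPKM with isoproterenol, and fell with metoprolol (-0.49), lidocaine (-0.86) and ivabradine (-1.11, adjusted p = 0.000112), to 19.0 FPKM with ivabradine. Tcf21, a factor of cardiac fibroblasts and one of the fibroblast markers here, fell with all 6, between -0.45 and -0.21, and Tbx2, a T-box repressor, fell with the 5 anti-arrhythmic drugs, between -0.38 and -0.23. Tead1, the DNA-binding partner of Yap1, rose with the 5 anti-arrhythmic drugs, between 0.41 and 0.52, from 16.8 FPKM in control to 24.5 FPKM with lidocaine. Prox1, a homeobox factor of heart muscle and lymphatic vessels, rose with all drugs except ivabradine (0.16, adjusted p = 0.264), between 0.35 and 0.53.

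Of 24 partners and brakes of the 9 factors, all were tested, and 6 rose and 2 fell with isoproterenol, 6 and 2 with amiodarone, 5 and 3 with metoprolol, 5 and 6 with propranolol, 6 and 3 with lidocaine, and 5 and 5 with ivabradine. Over all tested genes, 6.98 to 10.6% rose and 19.1 to 26.6% fell with a drug. Srf, the serum response factor that works with Gata4 and Nkx2-5 at contractile genes, rose with the 5 anti-arrhythmic drugs, between 0.48 and 0.65, from 40.3 FPKM in control to 63.9 FPKM with lidocaine, and not with isoproterenol (0.12, adjusted p = 0.187). Its coactivator Myocd rose with all 6, by 0.72 with lidocaine, 0.62 with ivabradine and 0.24 to 0.35 with the others. Smyd1, a muscle methyltransferase needed for ventricle growth, rose with all 6, most with isoproterenol (0.71, adjusted p = 5.75e-06). Hdac7, a class II histone deacetylase that holds MEF2 proteins inactive, fell with the 5 anti-arrhythmic drugs, between -0.54 and -0.26, from 43.9 FPKM in control to 29.9 FPKM with ivabradine. Lmcd1, a repressor of Gata6, fell with isoproterenol (-0.38, adjusted p = 0.00111), and Nfatc2, a calcineurin-driven partner, fell with ivabradine (-0.29, adjusted p = 0.0021).

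Of 25 muscle genes that the factors are known to activate, 24 were tested, and 12 rose with isoproterenol, 10 with amiodarone, 9 with metoprolol, 9 with propranolol, 7 with lidocaine and 9 with ivabradine, while at most 2 fell with any drug. Over all tested genes, 8.38, 8.47, 9.48, 6.98, 10.6 and 7.91% rose in the same order, and 19.1 to 26.6% fell. Of the 10 cardiomyocyte markers, 4 to 5 rose with each drug, and Ryr2 is in both lists. Medians of the muscle genes lay between 0.04 and 0.22. Atp2a2, the sarcoplasmic calcium pump and a target of Tbx5, rose with all 6 drugs from 1374 FPKM in control to between 2223 and 2422 FPKM. Slc8a1, the sodium-calcium exchanger, rose from 15.6 FPKM to 38.1 FPKM with amiodarone (1.22, adjusted p = 0.000162) and by 0.56 to 1.10 with the other drugs. Ryr2, the calcium release channel, rose with all 6, between 0.38 and 0.72, and Xirp1, a MEF2 target at the intercalated disc, with all but lidocaine and ivabradine, between 0.34 and 0.44.

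The gap junction genes parted. Gja1, connexin of working muscle, rose with isoproterenol (0.36), amiodarone (0.28) and metoprolol (0.24) and fell with ivabradine (-0.21), from 177 FPKM in control to 227 FPKM with isoproterenol and 152 FPKM with ivabradine. Gja5, connexin of the conduction system and a joint target of Tbx5 and Nkx2-5, fell with metoprolol (-0.30), lidocaine (-0.30) and ivabradine (-0.35). Tbx5 and Nkx2-5 themselves passed the test with none of these drugs.

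**Figure D4:**
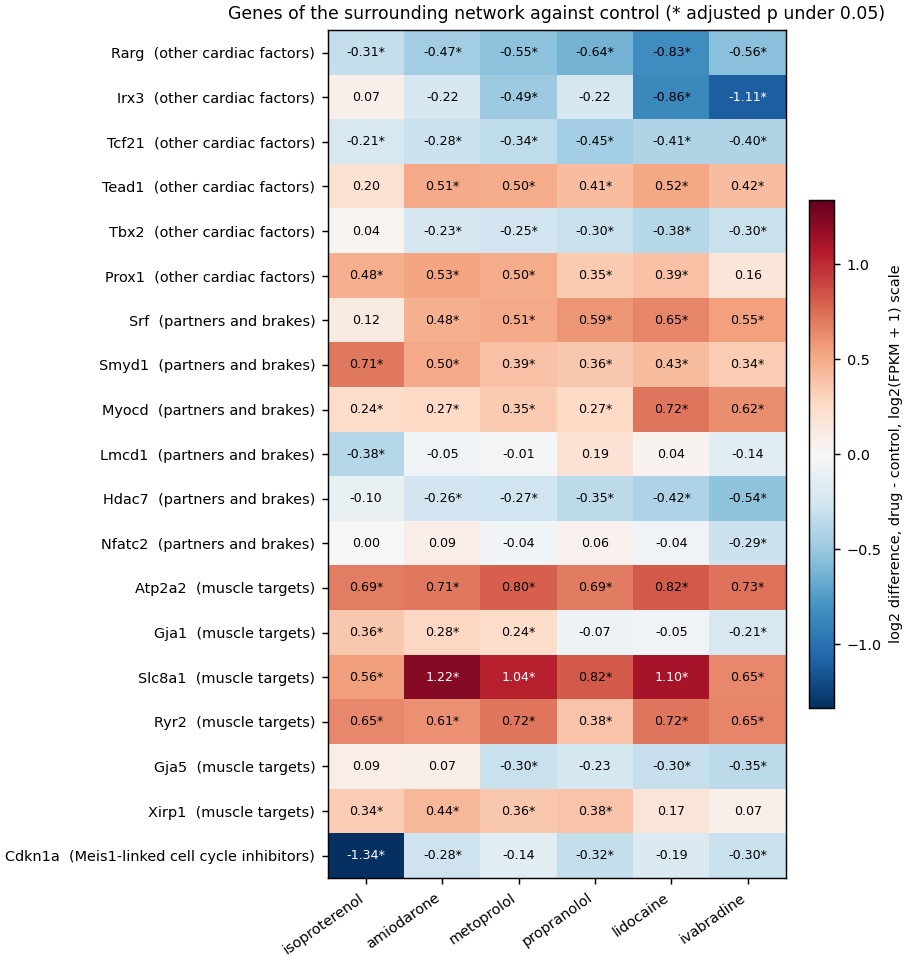
Log2 difference from control (colour and printed number, log2(FPKM + 1) scale) of the genes with the smallest p over the 7 groups in each of 4 lists of related genes, in rows, for the 6 drugs, in columns; a star marks an adjusted p under 0.05. Srf, Tead1 and Hdac7 change with the 5 anti-arrhythmic drugs, and Cdkn1a is lowest with isoproterenol (-1.34).

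Markers of cell types moved beside these results. Of 10 cardiomyocyte markers, 4 to 5 were higher with each drug (1 was lower, with lidocaine), where 6.98 to 10.6% of all genes were higher. The mean of Myh6 went from 4863 FPKM in control to between 5796 and 6317 FPKM. Myl2 had a lower mean with all 6 drugs, 12870 to 14230 FPKM against 15050 FPKM in control. The Tnnt2 mean, 5985 FPKM in control, was higher with isoproterenol and ivabradine and lower with the other drugs. Of 10 fibroblast markers 6 were lower with isoproterenol, 5 with propranolol, 3 with lidocaine and 1 with each of the other drugs, where 19.1 to 26.6% of all genes were lower with a drug, with summed levels of 1919 to 3548 FPKM in control and 1928 to 2878 FPKM over the drug groups. Of 10 endothelial markers 3 to 6 were lower, with sums of 1756 to 1972 FPKM in control and 1435 to 1743 FPKM with drugs, and of 9 macrophage markers 3 to 8 were lower, with sums of 292.9 to 687 FPKM in control and 112 to 470.0 FPKM with drugs. Of 6 epicardial markers 4 were higher with amiodarone, 4 with lidocaine and 5 with ivabradine, with sums of 10.6 to 18.7 FPKM in control and 11.7 to 47.2 FPKM with drugs. Of 8 smooth muscle and pericyte markers 1 to 2 were higher (1 was lower, with isoproterenol and with amiodarone), and of 5 tested neutrophil markers 1 to 5 were lower. Amiodarone differed from the other drugs here, with 1 neutrophil marker lower but a median difference of 0.43. Summed neutrophil levels were 63.3 to 68.7 FPKM with amiodarone, and 21.5, 133 and 22.2 FPKM in the controls. Of 5 tested skeletal muscle markers 4 were lower with isoproterenol, 4 with lidocaine, 3 with propranolol, 3 with ivabradine and 1 with metoprolol (1 was higher, with isoproterenol), with medians over the 6 drugs of -2.34 to -0.74, beside the Mylpf level of control 3. All 8 markers of that list, Ckm among them, summed to 1703 to 1738 FPKM in control and 1511 to 1969 FPKM with drugs. Mylpf reached at most 62.7 FPKM, and the part of Ckm in the sum was not tested, so the sum is no measure of skeletal muscle RNA. In bulk tissue, fewer cells of a type and less RNA per cell cannot be told apart, and the part of cell makeup in the members' differences was not tested.

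On a scale set by the 10 cardiomyocyte markers, as if heart muscle RNA were the reference, the median over all genes fell to between -0.26 and -0.22. Of these markers, 4 to 5 were themselves called higher with each drug, and 1 lower with lidocaine, so this reference was not constant between groups. On it, Gata6 kept its call with every drug except propranolol, Hand2 and Tbx20 kept theirs with metoprolol (0.42 and 0.27), lidocaine (0.58 and 0.45) and ivabradine (0.53 and 0.34), Mef2a with lidocaine (0.22), and Gata4 with no drug (-0.09 to 0.13). Meis1 was then lower with all 6 drugs, between -0.46 and -0.27, and Nkx2-5 was lower with metoprolol (-0.15) and propranolol (-0.17). Scaled in this way, Gata4 was below control with isoproterenol and ivabradine without a call, and Mef2c lay below control with all 6, called with isoproterenol (-0.24).

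Differences from control also moved with transcript length over all genes. The median was -0.19 to -0.13 in the shortest length class and -0.03 to 0.02 in the longest, with the middle class between them. Tbx20 and Mef2a, with transcripts of 9091 and 5538 bases in the annotation used, belong to the longest class, Nkx2-5 (1525 bases) to the shortest, and the other 6 to the middle. After correction of each library for length and GC content, Tbx20 was at 0.46 with lidocaine, 0.38 with ivabradine and 0.26 with metoprolol, still called, and Mef2a at 0.28 with lidocaine, while Hand2 stood at 0.79 with lidocaine and 0.76 with ivabradine.

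**Figure D5:**
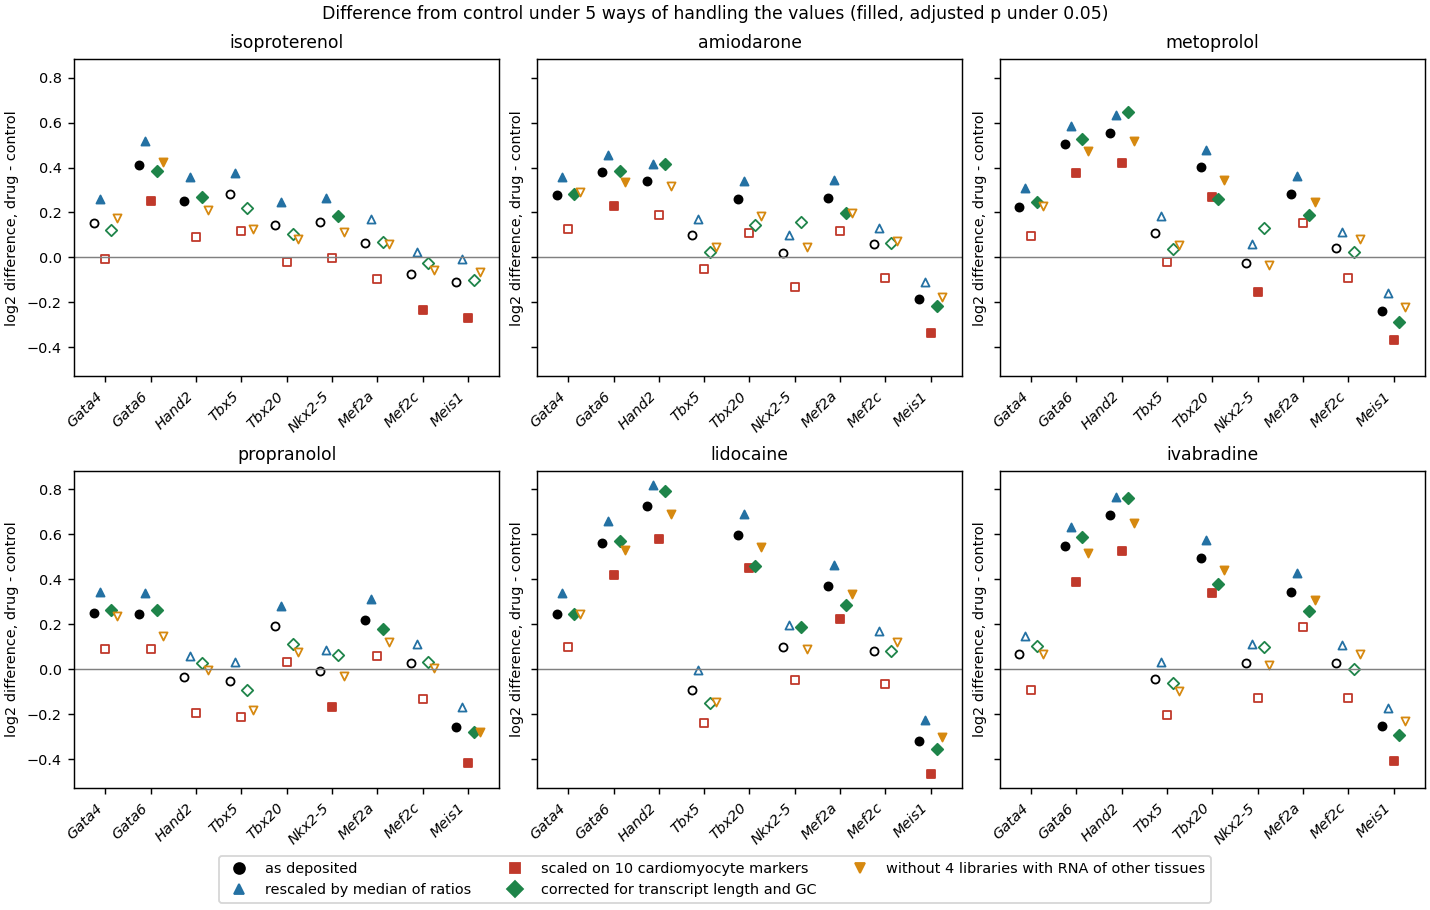
Log2 difference from control (vertical axes, log2(FPKM + 1) scale) of the 9 members for each drug under 5 ways of handling the values, by symbol; filled symbols passed an adjusted p of 0.05. Rescaling by gene ratios lifts every point and the cardiomyocyte scale lowers every point. Gata6, Hand2 and Tbx20 with lidocaine and ivabradine are filled in all 5, and Gata4 is filled in no more than 3.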

How the data were processed

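Bulk RNA from 21 libraries in 7 groups of 3 was sequenced on a BGISEQ-500, after oligo dT selection or rRNA depletion (the labels do not say which). The authors deposited FPKM values for 18762 genes. HISAT and Bowtie2 2.2.5 are listed, with mm9 as the mouse build, per the submitters' processing notes, and the counter, annotation and filters are not given in the sources used here. All value columns matched a library, and 0 were left over. The deposited FPKM values keep no absolute depth.

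Values were analysed as log2(FPKM + 1), which understates changes of low genes. The 12433 genes that reached 1 FPKM in 3 or more libraries were fitted with limma 3.58.1 in R 4.3.3, with 1 mean per group, 14 residual degrees of freedom and empirical Bayes moderation with a variance trend. Within each comparison, Benjamini-Hochberg adjustment covered all tested genes, and a gene was called at 0.05. The fit was tested on simulated data. Ratios within libraries were compared by two-sided exact permutation, whose smallest p is 0.10.

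The members and lists were chosen with earlier results of these data known. Named genes were the 9 members, the at most 6 genes of each related list with the smallest p over the 7 groups, and the 2 genes of highest Pearson r with each member, bare locus names aside. Mef2d was named in addition, for its level beside Mef2a and Mef2c. Promoters came from RefSeq (GRCm38.p6), and transcript lengths and GC content, matched for 97.1% of genes, from an annotation of a later build than mm9, so no other coordinates were used. Title numbers were checked as pairs: residuals of same-numbered libraries correlated at -0.54 to 0.29 (median -0.03, 63 pairs), so no pairing was modelled. Alternatives changed the pseudocount (0.1), dropped the filter on low genes or raised it to 5 FPKM, rescaled libraries by the median ratio to a reference, fitted without the trend or with robust variances, blocked on title number, fitted the compared groups alone, and left out each library. Added after seeing the data were leaving out 4 libraries with RNA of other tissues, a covariate of 4 Y-linked genes, scaling on 10 cardiomyocyte markers, and a length and GC correction.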

Additional observations from a re-analysis of the deposited data

How the results depend on the processing

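No called difference of a member changed sign under any alternative. Over all members and comparisons, 2008 values kept their direction and side of the threshold, 145 lost the call, 33 gained it and 64 uncalled ones changed sign; except where a setting removes libraries, the cause was not tested. Depth is unknown, since FPKM keeps no counts, so the least abundant members have no stated counting error.

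Counts of called genes were 4254 with isoproterenol, 3608 with amiodarone, 3910 with metoprolol, 3332 with propranolol, 4615 with lidocaine and 3358 with ivabradine against control, 1003 for isoproterenol against metoprolol, 1821 against propranolol and 2831 against the anti-arrhythmic mean, 6 for metoprolol against propranolol, 4962 among 7 groups and 132 among the 5 anti-arrhythmic groups. Without a filter, metoprolol against propranolol gave 0 and the 5 groups 76. With the compared groups alone, ivabradine gave 1616, isoproterenol against metoprolol 528 and metoprolol against propranolol 2. With the title number as a replicate block, Hand2 lost its isoproterenol call (adjusted p = 0.0527), its calls of isoproterenol against metoprolol (0.0674) and propranolol (0.058) and that against the anti-arrhythmic mean (0.0635), while Meis1 gained one there (0.0441). No other member call changed with the block.

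Without the 4 libraries with RNA of other tissues, a choice made after seeing the data, counts were 1940 with isoproterenol, 1117 with amiodarone, 1355 with propranolol and 2229 with ivabradine, 307 for isoproterenol against metoprolol, 881 against propranolol and 1384 against the anti-arrhythmic mean, 0 for metoprolol against propranolol, 2152 among 7 groups and 11 among 5. Tbx20 was then 0.0027 for isoproterenol against propranolol and Gata6 0.0231 against the anti-arrhythmic mean. With the Y-linked covariate, also added, isoproterenol against propranolol gave 695, against the mean 1708, and metoprolol against propranolol 1. Tbx20 was 0.0437 in the first, and Nkx2-5 0.0041 and Meis1 -0.0048 in the last.

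Rescaling by gene ratios turned uncalled differences from control to 0.026 for Mef2c with isoproterenol, 0.0582 and 0.086 for Nkx2-5 with metoprolol and propranolol, 0.0576 for Hand2 with propranolol, and 0.0325 and 0.0326 for Tbx5 with propranolol and ivabradine. Scaling on cardiomyocyte markers, also added, called 7419 genes with isoproterenol, 6661 with amiodarone, 6138 with metoprolol, 7131 with propranolol, 7049 with lidocaine and 6776 with ivabradine, 3 for metoprolol against propranolol and 83 among the 5 groups. Uncalled differences turned to -0.0086 (isoproterenol) and -0.0928 (ivabradine) for Gata4, -0.0198 (isoproterenol) for Tbx20, -0.0976 (isoproterenol) for Mef2a, and -0.0501 (amiodarone) and -0.0222 (metoprolol) for Tbx5. Nkx2-5 turned to -0.0035 with isoproterenol, -0.1318 with amiodarone, -0.047 with lidocaine and -0.1299 with ivabradine. Mef2c turned to -0.0923 with amiodarone, -0.0913 with metoprolol, -0.1333 with propranolol, -0.0639 with lidocaine and -0.1301 with ivabradine. Between metoprolol and propranolol, Gata4 turned to 0.0055 and Nkx2-5 to 0.0124. The added length and GC correction turned Nkx2-5 to 0.1315 with metoprolol, 0.0625 with propranolol and 0.069 between them, Hand2 with propranolol to 0.0257, and, between the beta-blockers, Mef2c to -0.0068 and Meis1 to -0.0101.

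Leaving out each library in turn gave counts of 2778 to 4173 with isoproterenol, 2038 to 3422 with amiodarone, 2388 to 3674 with metoprolol, 2000 to 3226 with propranolol, 2217 to 3827 with ivabradine, 413 to 851 for isoproterenol against metoprolol, 957 to 1559 against propranolol, 1593 to 3237 against the anti-arrhythmic mean, 0 to 2 for metoprolol against propranolol and 70 to 134 among the 5 groups. Uncalled differences that changed sign ran, for Tbx5, from -0.0028 to 0.2057 with amiodarone, -0.1285 to 0.0435 with propranolol, -0.1442 to 0.0039 with lidocaine and -0.1084 to 0.0621 with ivabradine. Those of Nkx2-5 ran from -0.0128 to 0.0597 with amiodarone, -0.0617 to 0.0431 with metoprolol, -0.0383 to 0.0336 with propranolol and -0.021 to 0.0729 with ivabradine. Those of Mef2c ran from -0.0204 to 0.0803 with metoprolol, -0.0368 to 0.088 with propranolol and -0.0292 to 0.1239 with ivabradine, and Hand2 with propranolol from -0.122 to 0.0303. Tbx20 ran from -0.1259 to 0.0095 for isoproterenol against propranolol, and Gata6 from -0.0802 to 0.0078 against the anti-arrhythmic mean. Between metoprolol and propranolol, Gata4 ran from -0.0921 to 0.0261, Nkx2-5 from -0.0547 to 0.0501, Mef2a from -0.0026 to 0.1278, Mef2c from -0.0478 to 0.077 and Meis1 from -0.0305 to 0.061.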
